A study of Mus musculus and Homo sapiens with 22 samples.

Results

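The HEK293T list held 36556 predicted N6-methyladenosine (m6A) sites, out of 118638 sites in the 6 site lists of the series. Every line of the list was taken as a site, and a site was given to a human gene when an exon of that gene on the same strand covered it. miCLIP2 was performed on untreated HEK293T cells, a transformed human embryonic kidney line, as 4 replicates of poly(A)+ RNA crosslinked by UV light to a rabbit anti-m6A antibody. Reverse transcription stops beside the crosslinked antibody remnant, which gives the modified A at single-nucleotide resolution, and the m6Aboost classifier then scores each peak at an A. The list combines the 4 replicates into 1 value per site, so it gives neither a spread between replicates nor a read depth, and no test over samples was possible. Intervals below are Wilson 95% intervals and cover counting error only. Expression in HEK293T was not measured in the data used here, so a gene without a site may be unmethylated, not expressed, or too low to be read.

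m6A is the most frequent internal modification of mammalian mRNA. It is written in the nucleus by a complex built around METTL3 and METTL14, mostly at the motif DRACH (D is A, G or T, R is A or G, H is A, C or T). It is bound by reader proteins such as the YTH family, which speed mRNA decay or act on splicing and translation, and it can be removed by the demethylases FTO and ALKBH5. Sequence around the A, transcript region, relative signal strength and C-to-T changes are inputs of the classifier, so that differences in motif, region and score are partly built into the list. Exon length, distance to an exon junction and gene function are not inputs.

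The sites were dense enough in some transcripts that several fell into a stretch of 30 nt. The following 30-nt stretches of coding sequence, read from GRCh38 on the transcript strand, each held 4 sites, which are the capital letters. They are examples, shown because single-nucleotide calls can be seen side by side in them. HPS6 encodes a subunit of a lysosome-related organelle complex (chr10:102066204-102066233, plus strand, scores of 0.744 to 0.864), PPP1R37 a regulator of protein phosphatase (chr19:45145565-45145594, plus strand, 0.527 to 0.870), and HSPA13 a Hsp70 family member (chr21:14374035-14374064, minus strand, 0.677 to 0.880).
HPS6: ggAcgaggggAcacatgggActtccggAcc
PPP1R37: ggActcagActcagActcggActcggatgg
HSPA13: tagtgAcactgaActgccaaaagAcaaAct

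For single sites, the 21 nt around the highest-scoring site of 8 genes are given, with the 5 nt around the modified A in capitals. They show the range of motifs behind the results that follow. The first 4 genes are those that the study names for HEK293T. Their windows do not cover the positions that the study tested in DDIT4, RHOB and ABT1 with an antibody-independent qPCR assay. That assay found m6A at the tested positions of DDIT4 and RHOB but not at that of ABT1. DDIT4, an inhibitor of mTORC1 signalling, had its site at chr10:72275179-72275199 (plus strand, score 0.962), on the nucleotide that follows the stop codon. RHOB, a small GTPase (chr2:20448649-20448669, plus strand, 0.905), and CCDC85B, a coiled-coil protein (chr11:65891499-65891519, plus strand, 0.957), had it in the 3′ UTR. ABT1, an activator of basal transcription, had it in the coding sequence (chr6:26598628-26598648, plus strand, 0.951).
DDIT4: ggagtgttGAACTtcaacctg
RHOB: catgaacaGGACTtgaccatc
CCDC85B: gctggcatGGACTaagaaatc
ABT1: cttgtcagGGACTcctgaggg
The remaining windows belong to genes described further on: METTL3 (chr14:21511128-21511148, minus strand, coding, score 0.884), RBM15B (chr3:51394003-51394023, plus strand, coding, 0.851), TMEM203 (chr9:137204363-137204383, minus strand, 3′ UTR, 0.986) and HOXD13 (chr2:176093386-176093406, plus strand, coding, 0.868).
METTL3: cggaagcaGGACTcggggcac
RBM15B: agcactaaGGACAttgggcaa
TMEM203: caagaaaaGAACTctgctgtc
HOXD13: aagtacatGGACGtgtcaggc
The HOXD13 window is the only one of these 8 that is not a DRACH motif.

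Most sites lay in exons of a single gene. Of the 36556 sites, 34428 (94.2%, 93.9 to 94.4%) were covered by exons of 1 gene on their strand, 1439 by exons of several genes and 689 by no exon. Of the last, 380 lay within an intron and 309 in no annotated gene on that strand. Sites were found on 23 chromosomes, the autosomes and X, with 18857 on the plus and 17699 on the minus strand. No site lay on the mitochondrial chromosome. Scores ran from just above 0.5 to 1 with a median of 0.715 (quartiles 0.612 and 0.814), and 7.07% of the sites scored at least 0.9.

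The 34428 sites of single genes fell into 7133 genes. A gene with a site had a median of 3 sites (quartiles 2 and 6), 1540 genes (21.6%) had exactly 1, and 882 genes had 10 or more. These 882 genes, 12.4% of those with a site, held 36.2% of the sites (35.6 to 36.7%), and 98 genes had 20 or more. Protein-coding genes carried 96.4% of the sites. Of 20046 coding genes, 6806 had at least 1 site (34%) and 857 had 10 or more (4.28%). With only sites of a score of at least 0.7, 0.968% of coding genes had 10 or more. Of 18866 annotated lncRNA genes, 291 had a site (1.54%), with a median of 2 sites, 0.978 sites per kb of exon and a site score of 0.701. The 6 lncRNA genes with most sites were XIST with 39, LINC00205 with 30, LINC02593 with 26, SLC9A3-AS1 with 25, BAIAP2-DT with 19 and ENTPD1-AS1 with 18. On the exons of the representative transcript alone, ENTPD1-AS1 had 0, LINC02593 10 and SLC9A3-AS1 13, and at a score of at least 0.7 BAIAP2-DT had 4, LINC02593 12, SLC9A3-AS1 16 and LINC00205 18. Pseudogenes and other classes together gave 36 genes with a site, 28 of them pseudogenes.

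**Figure D1:**
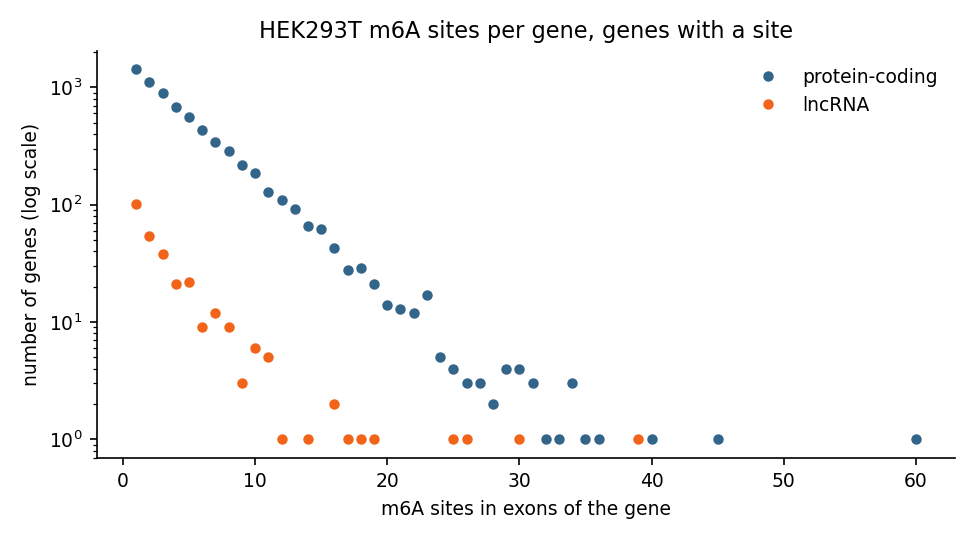
Number of genes (y axis, log scale) with each number of m6A sites in their exons (x axis), for protein-coding genes and lncRNA genes with a site. Counts fell steadily from 1 site upward, and 19 genes of any class had at least 30 sites, with the most, 60, in SPEN.

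Among the 15 genes with most sites, SPEN, a transcriptional co-repressor that binds RNA, led with 60 sites (3.97 per kb of exon), 36 of them in 1 internal exon of 8176 nt. PLEC, the cytoskeletal linker plectin, had 45 sites with a median score of only 0.604. MKI67, the proliferation marker Ki-67, had 40. The nuclear speckle proteins SRRM2 and SON had 36 and 34, and in each gene 32 of them lay in 1 internal exon, of 6701 and 5916 nt. Further coding genes among the 15 with most sites, with 30 to 35 sites, included TBC1D16, FOXK2, LRRC14, ANKRD11, EME2, NFE2L1, TNRC18 and IRS4. At a score of at least 0.7, SPEN had 27 sites, PLEC 10, MKI67 21, SRRM2 17 and SON 21. The sites of these genes were placed in different regions. In EME2, a subunit of a DNA structure-specific endonuclease, all 32 lay in the 3′ UTR, and in FOXK2, a forkhead transcription factor, 32 of 34 did. In TNRC18, 28 of 31 were coding, and in IRS4, an insulin receptor substrate, 23 of 30 were.

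**Figure D2:**
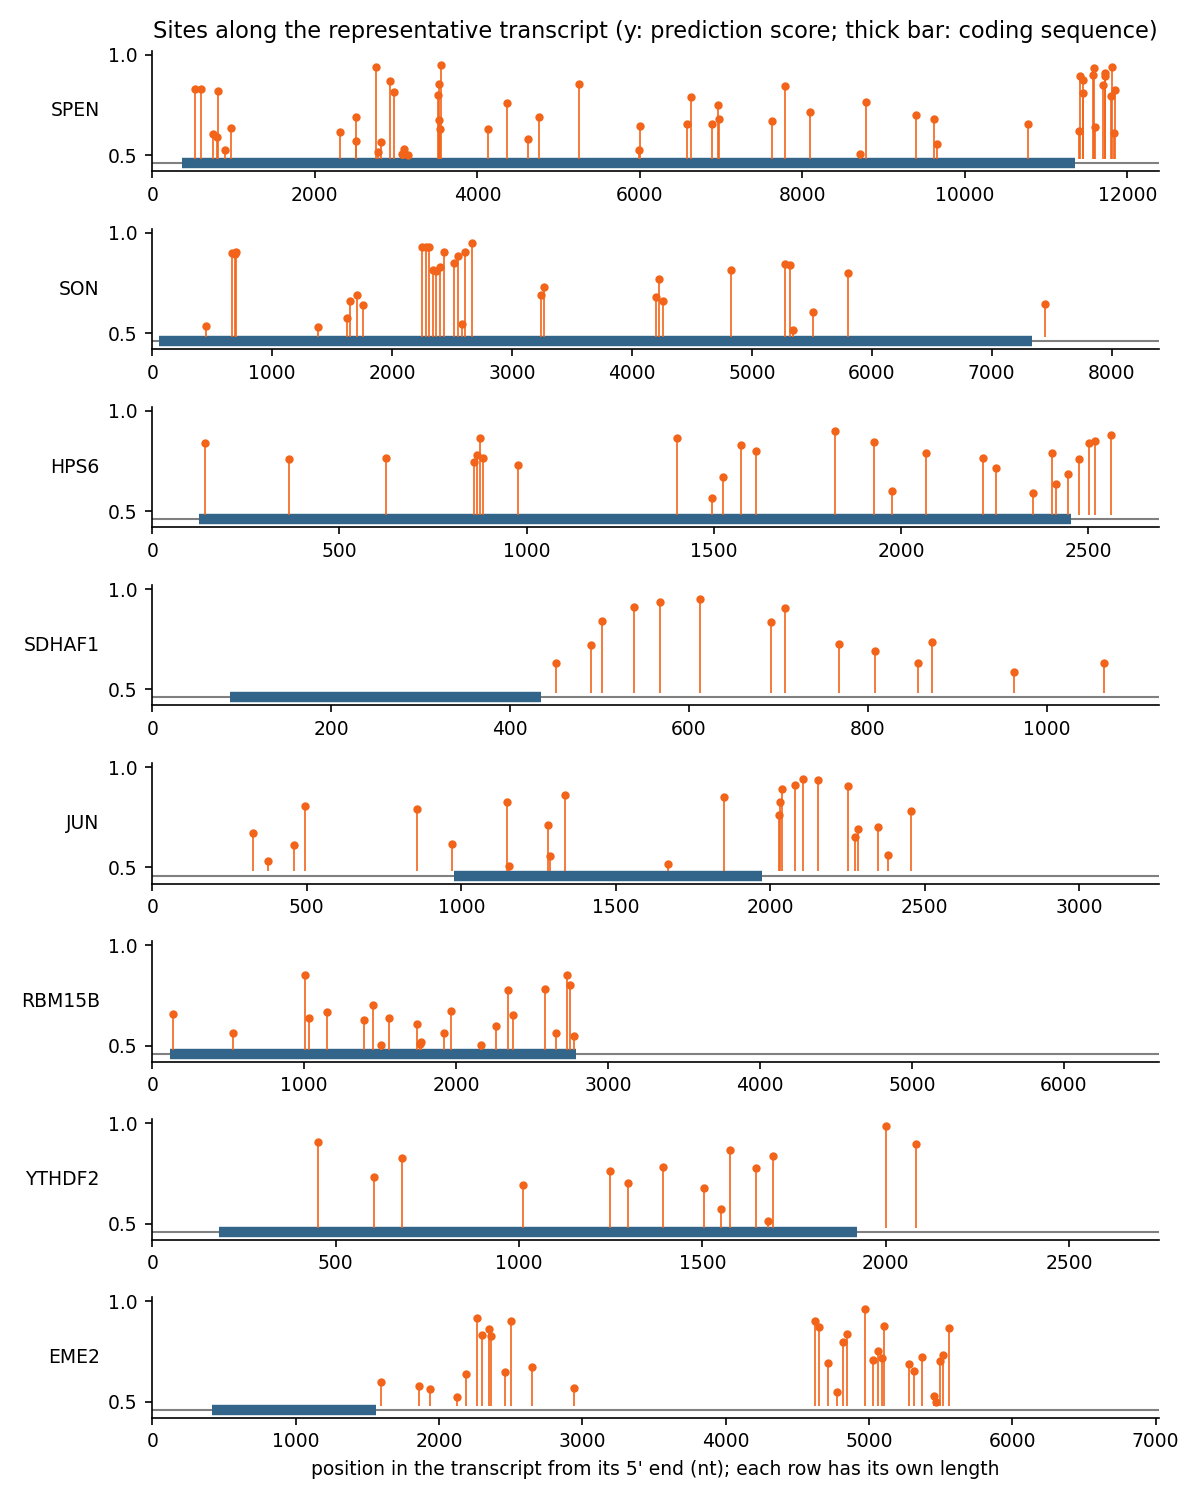
m6A sites along the representative transcripts of 8 genes, with the position from the 5′ end in nt on the x axis and the prediction score as the height of each line. The thick bar is the coding sequence. SPEN held sites along its coding sequence and in the start of its 3′ UTR, the RBM15B sites ended with the coding sequence, and those of SDHAF1 and EME2 lay in the 3′ UTR.

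Per length of exon, the leading genes were mostly short and of a single exon. A gene with a site had a median of 0.673 sites per kb of exon (quartiles 0.310 and 1.39) and 3.81 sites per 100 DRACH motifs. Counted on the exons of the representative transcript alone, the median was 1.11 sites per kb. Exon length otherwise joins the exons of all transcripts, which lengthens genes of several exons more. SDHAF1, an assembly factor of succinate dehydrogenase, had 14 sites in 1125 nt, or 12.4 per kb, all in the 3′ UTR. SF3B5, a subunit of the SF3b splicing complex, had 8 sites (11.6 per kb), and HPS6 had 27 (10.0 per kb), 23 of them coding. They were followed by TMEM203, an endoplasmic reticulum membrane protein (8.93 per kb), POP7, a subunit of RNase P and RNase MRP (8.78), THAP11, a zinc finger transcription factor (8.53), FRAT2, an inhibitor of the kinase GSK3 (8.51), and RTL8C, derived from a retrotransposon Gag gene (8.39). Of these 8 genes, 7 have a representative transcript of 1 exon, and POP7 has 2. Per 100 DRACH motifs of exon they held between 48.5 sites (THAP11) and 63.6 (SDHAF1 and TMEM203), with sites outside DRACH counted too. CCDC85B, also of 1 exon, was close behind with 8 sites (8.31 per kb), and RHOB had 15 (6.34 per kb).

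Sites per kb also differed by exon number among coding genes with a site. Of 1130 coding genes of 1 exon, 172 had a site (15.2%, 13.2 to 17.4%), beside 34% of all coding genes. These 172 genes had a median of 9 sites, 2.91 per kb, and 43.6% of them had 10 or more. Over all 1130, 6.64% had 10 or more, beside 4.28% of all coding genes. The 6634 genes with a site and more exons had a median of 3 sites, 0.642 per kb, and 11.8% had 10 or more. Sites per kb fell with each step in exon number, from 1.13 with 2 to 5 exons to 0.672 with 6 to 10, 0.509 with 11 to 20 and 0.354 with over 20. Exon length here joins the exons of all transcripts. Its median was 2876.5 nt in genes of 1 exon with a site, beside 2731 nt for the representative transcript. In those of more exons it was 5472 and 3434.5 nt, so values per kb also depend on this denominator. On representative transcripts, 28.3% of coding and 9.02% of 3′ UTR DRACH motifs carried a site in the former, beside 5.66% and 5.23%. The number of sites hardly followed this joined length of exon over the 7133 genes with a site (Spearman rho 0.09, Pearson r 0.09, across genes, which are not independent replicates). Over the 6806 coding genes with a site, it weakly followed the longest exon of the representative transcript (Spearman rho 0.20, Pearson r 0.16). Sites per kb, which has exon length in its denominator, went down with length, from a median of 1.69 in the fifth of coding genes with the shortest exons (up to 2154 nt) to 0.316 in the fifth with the longest (over 8032 nt). The share of coding genes with a site was 13.8% in the former and 42.4% in the latter. By the longest exon of the transcript, 19.6% of coding genes whose exons were all under 500 nt had a site and 6 of 3422 had 10 or more. Where the longest exon was at least 2000 and under 4000 nt, 40.1% (38.8 to 41.5%) had a site and 352 of 4814 had 10 or more.

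Within transcripts, sites were rare near exon junctions. In coding genes with a site, the representative transcripts held 511111 DRACH motifs, of which 28803 (5.64%) carried a site. Within 25 nt of a junction 1.15% (1.07 to 1.23%) of the motifs carried one, at 75 to 99 nt 5.19% (4.88 to 5.52%) did, and at 200 to under 300 nt 19.4% (18.9 to 19.9%) did. The rise held in the coding sequence alone, from 1.14% to 19.7%, and in internal coding exons, from 0.948% to 17.0%. Farther out the share fell again, to 11.3% beyond 1000 nt in the coding sequence and to 5.85% in internal coding exons. In the 5′ UTR the share was lower at 200 to under 300 nt, 8.24%, and went on rising to 13.2% beyond 1000 nt. In the 3′ UTR it was 6.10% within 25 nt, on 295 motifs only, reached 21.9% at 150 to under 200 nt and fell to 1.95% beyond 1000 nt. The intervals of the nearest and the 200 to under 300 nt classes did not overlap in any of these regions.

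**Figure D3:**
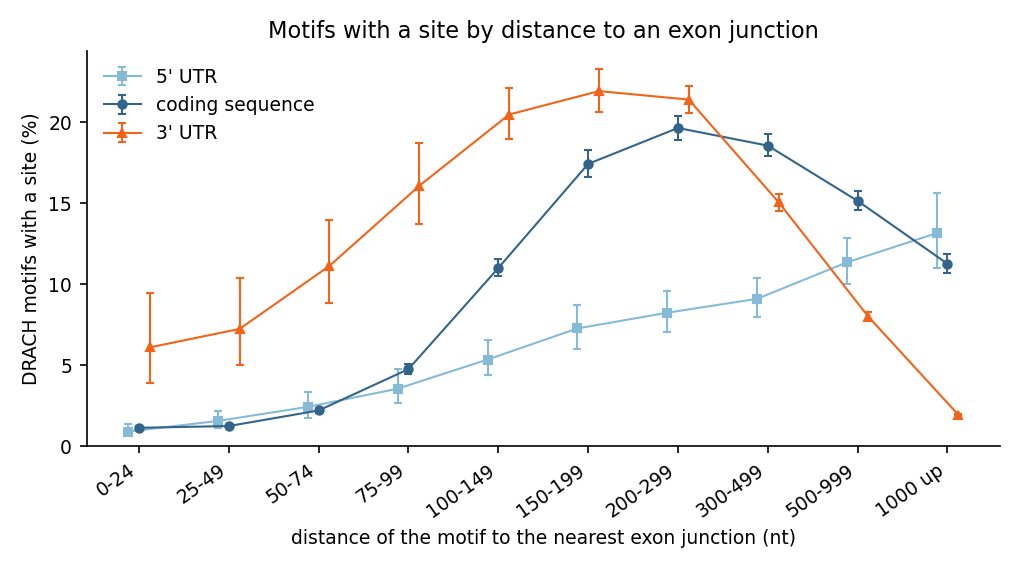
Share of DRACH motifs with a site (y axis, percent) by distance of the motif to the nearest exon junction in nt (x axis), in the 5′ UTR, coding sequence and 3′ UTR of representative transcripts of genes with a site. Bars are Wilson 95% intervals. In the coding sequence the share rose from 1.14% within 25 nt to 19.7% at 200 to under 300 nt.

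Internal coding exons differed by their length. The 51431 exons under 200 nt made up 87.0% of all internal coding exons and held 20.2% of their sites, or 0.190 sites per kb. Exons of 200 to 400 nt had 0.496 sites per kb. The 1616 exons over 400 nt were 2.73% of the exons and held 66.7% of the sites, or 2.42 per kb. A site was found in 2.01% (1.90 to 2.14%) of the short and 66.2% (63.8 to 68.4%) of the long exons. The median score was 0.613 in the short and 0.706 in the long exons. With a score of at least 0.7 only, the density was 0.0523 sites per kb in the short and 1.25 in the long exons. After SPEN, SON and SRRM2, the internal coding exons with most sites belonged to HELZ2, a helicase (26 sites in 3712 nt), ANKRD11 (23 in 6578 nt), WDR6 (23 in 2482 nt), SCAF1 (21 in 2838 nt) and TNKS1BP1 (21 in 2162 nt). These 5 were named after their values were seen. In TNKS1BP1 each of the 21 sites was a DRACH motif.

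The last exon held 65.7% of the 32284 sites that could be placed in a representative coding transcript, internal exons 22.1%, first exons 7.09% and single exons 5.09%. By region, 51.1% (50.5 to 51.6%) lay in the coding sequence, 45.2% (44.7 to 45.8%) in the 3′ UTR and 3.73% in the 5′ UTR. Counting every site that lay in the 3′ UTR of any transcript of its gene gave 56.8%. The density was 1.29 sites per kb in the coding sequence, 1.10 in the 3′ UTR and 0.843 in the 5′ UTR, and the median score was 0.692, 0.763 and 0.608 in that order. The share of DRACH motifs with a site rose toward the stop codon, from 3.70% more than 2000 nt before it to 14.1% in the last 100 nt of the coding sequence, was 21.9% (21.2 to 22.6%) in the first 100 nt of the 3′ UTR, and fell to 0.806% beyond 2000 nt. The median score moved from 0.677 to 0.716, then 0.781 and 0.738 at the same places. Among the 857 coding genes with 10 or more sites, 252 (29.4%) had at least 80% of the placed sites in the coding sequence, 189 (22.1%) had at least 80% in the 3′ UTR, and 498 (58.1%) had at least 80% in the last or only exon.

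**Figure D4:**
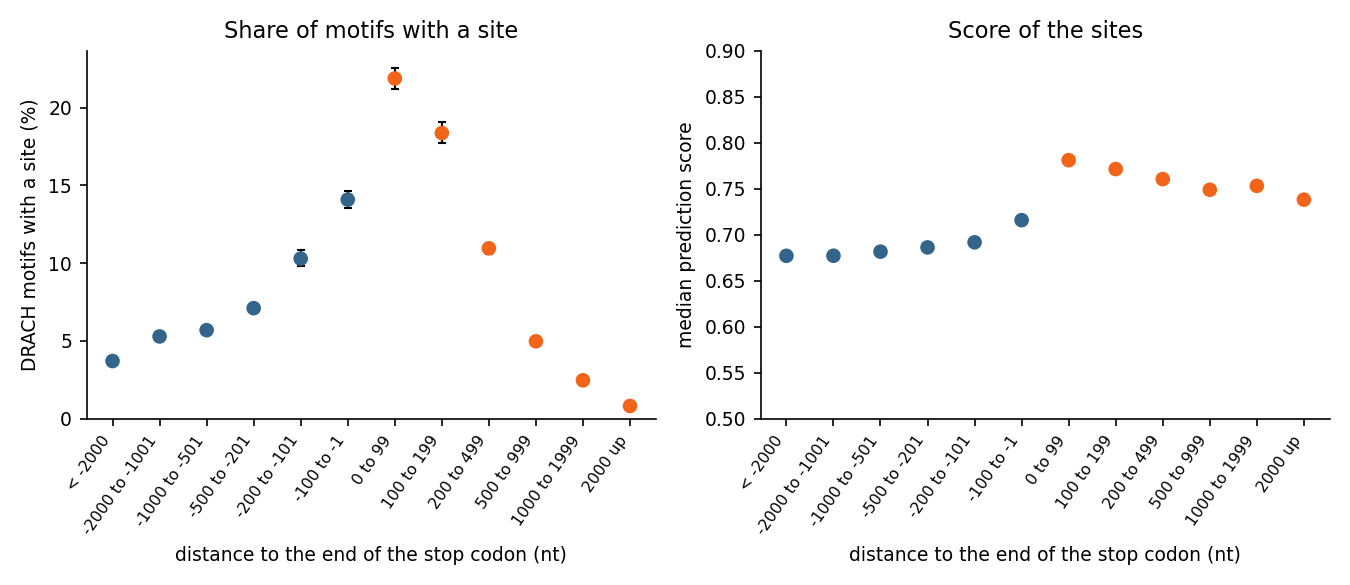
Share of DRACH motifs with a site in percent (left, bars are Wilson 95% intervals) and median prediction score of the sites (right) by distance to the end of the stop codon in nt, blue before and orange after it. The share peaked at 21.9% in the first 100 nt after the stop codon, and the median score was 0.738 or more in every class after it and 0.716 or less in every class before it.

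DRACH motifs differed widely in how often they carried a site. In all, 89.3% of the sites were DRACH, with a median score of 0.727 against 0.619 for the other sites. GGACT was most frequent, with 7271 sites (19.9% of the list), and 22.3% (21.9 to 22.8%) of the GGACT motifs in the representative transcripts of coding genes with a site carried one. GAACT followed at 13.02%, GGACA at 12.2%, AGACT at 11.3% and GGACC at 9.21%. At the other end, 0.0589% of TAACC, 0.169% of TAACA and 0.234% of AAACC motifs carried a site. GAACT had a higher median score than GGACT, 0.802 against 0.793, at a lower share of motifs. The difference by distance to a junction was present within each of the 6 motifs examined. For GGACT the share was 9.47% under 100 nt from a junction and 29.98% (29.3 to 30.7%) elsewhere, for GGACC 1.80% and 15.3%, and for TAACT 0.770% and 2.92%. Sites lay close together: 49.6% had another site of the same gene within 50 nt and 3.36% within 5 nt.

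Median scores per gene varied little with the number of sites. Over the 2791 genes with at least 5 sites, the gene median score had a median of 0.717, with 5% of genes under 0.606 and 5% over 0.831, and it did not follow the number of sites (Spearman rho -0.01) or sites per kb (0.04). Among genes with 10 or more sites, the highest medians were in PPIF, the mitochondrial cyclophilin D (0.880, 12 sites), MYC, the growth-promoting transcription factor (0.878, 13 sites), RSAD1 (0.878, 15 sites), FAM104A (0.866), NECTIN2, a cell adhesion molecule (0.863), TMEM177 (0.862), ZNF689 (0.857) and DDIT4 (0.855, 10 sites). The 10 sites of DDIT4 were split evenly over coding sequence and 3′ UTR, and the 4 of them outside DRACH scored 0.735, 0.558, 0.566 and 0.509, below the other 6. In PPIF, RSAD1 and FAM104A, 10 of 12, 13 of 15 and 12 of 12 sites lay in the 3′ UTR. In ZNF689 6 of 10 did, in MYC 4 of 13 and in TMEM177 4 of 10. NECTIN2 had 0 of 10 there, with 5 coding and 5 outside its representative transcript. Over all placed sites the median score was 0.763 in the 3′ UTR and 0.692 in the coding sequence. A link of these gene medians to region was not tested. The lowest medians were in RGMA, a repulsive guidance molecule (0.555), CPT2, an enzyme of mitochondrial fatty acid import (0.559), DEXI (0.567) and FAM83D, a mitotic spindle protein (0.572). All 13 sites of FAM83D, 11 of 13 of CPT2 and 7 of 10 of RGMA were coding, whereas 7 of 11 of DEXI lay in the 3′ UTR.

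Gene classes were compared by the share of members with a site, with 34% over all coding genes, and by the median over members with a site, which was 3 sites, 0.661 sites per kb of exon and a gene median score of 0.715 over all coding genes. Of 37 lists, 27 had a higher share than all coding genes. Some of these have intervals that hold 34%, such as respiratory chain subunits (26.1 to 47.0%) and m6A erasers (9.45 to 90.5%). The lists were chosen with earlier results of these data known, so the tally is a description only. These shares also carry whether the members are expressed in HEK293T, and no list was tested.

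**Figure D5:**
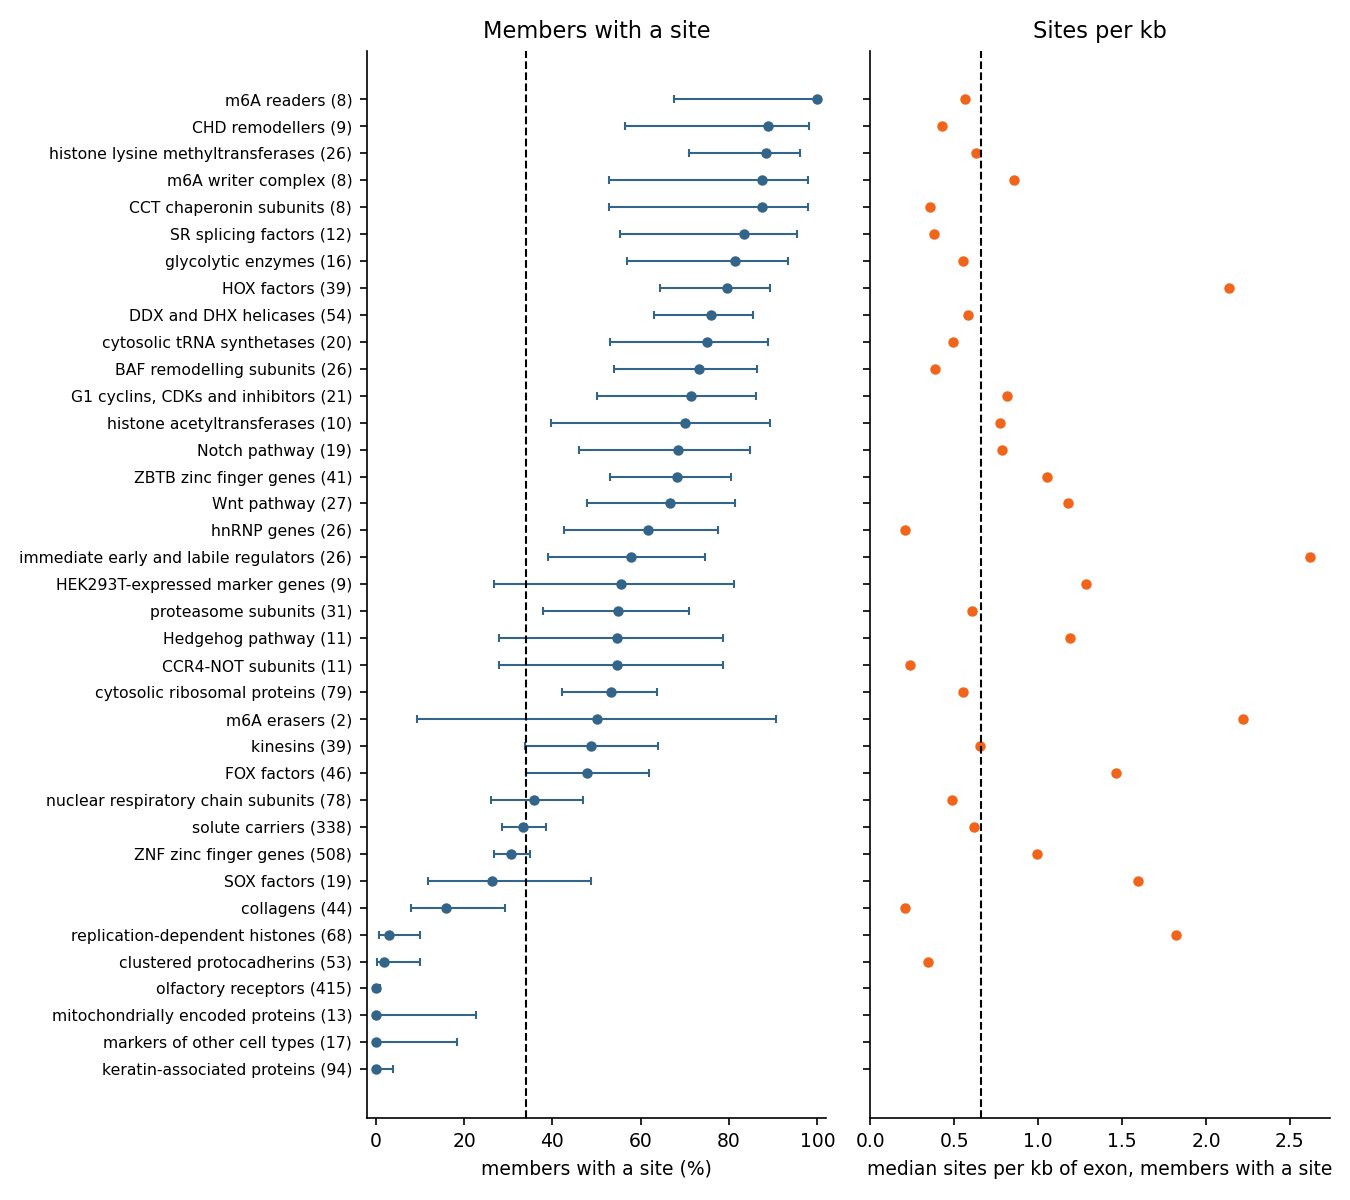
Percent of members with at least 1 site (left, bars are Wilson 95% intervals) and median sites per kb of exon over members with a site (right) for 37 gene lists, with the number of members in brackets. The dashed lines mark all coding genes at 34% and 0.661 sites per kb. Exon length joins the exons of all transcripts of a gene, so values per kb also depend on the annotation. The lists of HOX factors, of immediate early regulators and of m6A erasers, where only ALKBH5 had sites, lay above 2 sites per kb.

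The m6A machinery was itself marked. Of 8 writer complex genes 7 had a site, with 74 sites in all and a median of 9, and 3 had 10 or more (37.5%, beside 4.28% of all coding genes). RBM15B and RBM15, which guide the complex to RNA, had 23 and 12 sites, WTAP, the regulatory subunit, 16, VIRMA, the scaffold, 9, ZC3H13, which holds the complex in the nucleus, 7, METTL3, the catalytic subunit, 5 and METTL14, its RNA-binding partner, 2. CBLL1, a ubiquitin ligase of the complex, had none. In the representative transcripts 66 of the 74 sites were coding and none lay in the 3′ UTR: 62 of 482 coding DRACH motifs (12.9%, 10.2 to 16.1%) and 0 of 284 motifs in the 3′ UTR carried a site, beside 5.89% and 5.33% over all coding genes with a site. The other 8 sites belonged to WTAP and lay outside its representative transcript, in the 3′ UTR of shorter WTAP transcripts. Counting any transcript, 14 of the 74 sites lay in a 3′ UTR. The 5 METTL3 sites scored 0.757, 0.818, 0.815, 0.884 and 0.762, and all were DRACH motifs. Each lay above the median score of the whole list.

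All 8 reader genes had a site, with a median of 4.5. YTHDF2, which directs m6A-marked mRNA to decay, led with 15 sites and a median score of 0.776. YTHDF1 and YTHDF3 had 8 each, all coding, IGF2BP1 5, the nuclear reader YTHDC1 4, IGF2BP2 and IGF2BP3 3 each and YTHDC2 1. In the representative transcripts 36 of the 47 sites were coding and 9 lay in the 3′ UTR. Counting any transcript, 17 lay in a 3′ UTR. Of the erasers, ALKBH5 had 8 sites (2.22 per kb), 7 of them coding, and FTO had none in 21379 nt of exon with 451 DRACH motifs.

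Transcription factors and short-lived regulators held many sites per length. Of 26 immediate early and labile regulators 15 had a site, with a median of 9 sites and 2.62 per kb. Of the 26, 7 had 10 or more (26.9%, beside 4.28% of all coding genes). JUN, a subunit of the AP-1 transcription factor, had 25 sites (6.90 per kb), 6 of them in the 5′ UTR, IER2 had 18, IER5 15 and MYC 13. FOSL2 and NR4A3 had none. In this list 22.4% of coding motifs and 12.7% of 3′ UTR motifs of members with a site carried one. Of 39 HOX factors, which set position along the body axis, 31 (79.5%) had a site, with a median of 5 and 2.14 per kb. HOXD13 led with 15, 12 of them coding, then HOXA11 and HOXB9 with 12 each and HOXB13 with 11, while HOXC12 had none and HOXA3 only 1 site shared with another gene. SOX factors had a site in 5 of 19 (26.3%, 11.8 to 48.8%, an interval that holds the 34% of all coding genes). Those 5 had a median of 7, with 29 in SOX4 (5.96 per kb) and 15 in SOX12, both of 1 exon, then 7 in SOX8 and 5 in SOX13. Of 46 FOX factors 22 had a site, led by FOXK2 with 34 and FOXC1 with 24, then FOXK1 and FOXM1 with 11 each. In these lists most motifs lay away from junctions. The share of DRACH motifs at least 100 nt from a junction was 87.5% for immediate early regulators, 88.0% for HOX, 89.7% for SOX and 86.2% for FOX members with a site. It was 64.1% over all coding genes with a site. Of these distant motifs 17.8%, 15.2%, 20.4% and, in FOX genes, 9.52% carried a site, beside 7.77%.

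Of 508 ZNF genes 156 (30.7%) had a site, near the share of all coding genes, and 37 had 10 or more (7.28%, beside 4.28%). ZNF503 and ZNF687 had 23 sites each, ZNF629 22 and ZNF276 19. Of 41 ZBTB genes 28 had a site (68.3%). ZBTB18 had 19, ZBTB7B 16, and ZBTB22 and ZBTB40 13 each, whereas ZBTB20 and ZBTB37, with exons of 35362 and 19437 nt in all, had none. Sites of both lists were mainly coding, 65.7% for ZNF and 82.2% for ZBTB genes, where 11.7% of coding and 2.04% of 3′ UTR motifs of ZBTB genes with a site carried one.

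Most chromatin regulators had a site. At least 1 was found in 23 of 26 histone lysine methyltransferases (88.5%, beside 34% of all coding genes), with a median of 6 sites. NSD1 had 30 and SETD5 20, and all 18 sites of SETD1A were coding, as were 7 of 15 in NSD2, while KMT2E and EZH2 had none. Of 10 acetyltransferases 7 had a site (CREBBP 12, EP300 10, KAT2A and KAT6A 8 each, KAT7 and HAT1 none), of 9 CHD remodellers 8 did (CHD8 17, CHD7 11, CHD6 8, CHD2 6, CHD5 none) and of 26 BAF subunits 19 did. ARID1A, the DNA-binding BAF subunit, had 24 sites, all coding, whereas the 15 sites of BCL7A and the 7 of BCL7B were all in the 3′ UTR, with median scores of 0.844 and 0.824. ARID1B had 8, and SMARCA2 and SMARCE1 had none. For methyltransferases, acetyltransferases, CHD and BAF genes, median exon length was 11147.5, 9243, 14022 and 8110.5 nt, beside 4416 nt over all coding genes. Median sites per kb were 0.629, 0.775, 0.428 and 0.385 in that order, beside 0.661. Of coding DRACH motifs in members with a site, 4.95%, 4.59%, 3.08% and 4.66% carried one, beside 5.89%.

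Members of developmental signalling pathways also carried sites. Of 27 Wnt pathway genes 18 had a site (66.7%, beside 34% of all coding genes) and 8 had 10 or more (29.6%, beside 4.28%). The list was led by the receptor FZD7 (17), the scaffold AXIN1 (12, all coding), the transducer DVL1 (11) and the receptor FZD2 (11). FZD3 and APC had none. In the Notch pathway 13 of 19 had a site, led by the co-activator MAML1 (16), the effector HEY1 (14), the ligand JAG2 (10) and the effector HEYL (8), with none in NOTCH4 and JAG1. In the Hedgehog pathway 6 of 11 had a site (54.5%, 28.0 to 78.7%, an interval that holds 34%). The co-receptor GAS1 had 18, the inhibitor SUFU 12, and the transcription factor GLI2 and the transducer SMO 7 each, with a median score of 0.898 in SMO, while CDON and GLI3 had none. Of 21 G1 cyclins, CDKs and inhibitors 15 had a site, most in the inhibitors CDKN2C (11) and CDKN2B (9), then E2F3 (6) and CDKN1A (5), with none in RBL2 and RB1.

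RNA-binding and RNA-processing genes differed. Of 54 DDX and DHX helicases 41 had a site (75.9%, beside 34% of all coding genes) and 10 had 10 or more (18.5%, beside 4.28%). DDX17 and DDX20 had 14 each, DDX28 13 and DDX5 12, and DDX60 and DDX60L had none. Helicases with a site had a median of 0.579 sites per kb, beside 0.661, and 5.48% of their coding DRACH motifs carried one, beside 5.89%. Of 26 hnRNP genes 16 had a site, at a median of only 1 site and 0.204 per kb. HNRNPF had 12, all coding, HNRNPA0 10, HNRNPA3 6 and HNRNPDL 5, with 4 of these in the 5′ UTR, whereas HNRNPD and HNRNPLL had none. Of 12 SR factors 10 had a site, SRSF8 with 9, SRSF4 with 5, SRSF5 with 4 and SRSF11 with 3, and none in SRSF12. SRSF1 had only 2 sites shared with another gene. At a score of at least 0.7, 50% of the SR factors had a site. Of 11 CCR4-NOT deadenylase subunits 6 had a site (54.5%, 28.0 to 78.7%, an interval that holds the 34% of all coding genes). They had 12 sites in all, 10 of them in the 3′ UTR. CNOT2 had 4, CNOT8 3, CNOT6 2 and CNOT1 1, and CNOT7 and CNOT6L had none.

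Ribosomal protein, respiratory chain, proteasome and chaperonin genes with a site had few sites per gene, of low score. Their median sites per kb of exon were 0.549, 0.485, 0.605 and 0.355 in that order, beside 0.661 over all coding genes with a site. Exon length joins the exons of all transcripts, and its median over all members was 3228, 2545, 4347 and 3855 nt. The representative transcripts had 785, 760.5, 1540 and 2164.5 nt, beside 4416 and 2885 nt over all coding genes. Values per kb therefore cannot be compared directly between these lists and all coding genes. Of coding DRACH motifs in members with a site, 11.5% (8.84 to 14.7%), 6.08%, 4.66% and 3.46% carried one, beside 5.89%. With only sites of a score of at least 0.7, the share with a site was 16.5% of ribosomal protein, 14.1% of respiratory chain, 32.3% of proteasome and 37.5% of chaperonin genes, beside 28.3% of all coding genes. Cytosolic ribosomal protein genes had a site in 42 of 79 (53.2%, 42.3 to 63.8%), with a median of 2 sites and a gene median score of 0.609. RPL28 had 11, RPL13 10, RPL13A 7 and RPL37 6, and RPL14 had none. RPS29 had none of its own, but its exons held 5 sites shared with another gene. Nuclear respiratory chain subunits had a site in 28 of 78 (35.9%), none with 10 or more, a median of 1 and a score of 0.617. NDUFS7 had 7, UQCR11 5, and ATP5F1D and COX6B1 3 each, and 17.3% of the list's sites lay outside the representative transcripts. Proteasome subunits had a site in 17 of 31, with a median of 2 and a score of 0.608, led by PSMD7 (6), PSMD4 (5), PSMB5 (4) and PSMB1 (3), with none in PSMD1 and PSMD6. CCT chaperonin subunits had a site in 7 of 8 at a median of 1 and a score of 0.593: CCT3 had 5, CCT5 and CCT6A 2 each, CCT4 1 and CCT2 none. Of 16 glycolytic enzymes 13 had a site (56.3% of the list at a score of at least 0.7), with 7 each in PFKL and TPI1, 6 in PKM and 4 in ENO1, none in PFKP, and in ALDOA only 1 site shared with another gene. Of 20 cytosolic tRNA synthetases 15 did, at a median of 4, with 10 in YARS1, 7 in SARS1, 6 in AARS1 at a median score of 0.875 and 5 in GARS1, and none in FARSB and WARS1. Their short exons left 15.8% of motifs at least 100 nt from a junction, the least of the lists with a site. Of those motifs 15.8% carried one, beside 7.77% over all coding genes with a site.

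Kinesins had a site in 19 of 39 (48.7%, 33.9 to 63.8%, an interval that holds the 34% of all coding genes). They were led by KIF26A with 16, KIF3C with 9, and KIF1C and KIF3B with 8 each. Solute carriers had one in 113 of 338 (33.4%), near all coding genes, with 23 in the amino acid transporter SLC7A1, 22 in SLC38A10, and 17 each in SLC25A29 and SLC7A5. All 17 of SLC7A5 lay in the 3′ UTR, whereas 21 of 22 in SLC38A10 were coding. Collagens had a site in 7 of 44, and 3 genes held nearly all of them: COL6A2 had 19, COL18A1 16 and COL6A1 11, followed by COL4A2 with 2.

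Several classes had no or almost no site. None was found in the 415 olfactory receptor genes, the 94 keratin-associated protein genes or the 13 mitochondrially encoded proteins. Replication-dependent histone genes, whose mRNAs end in a stem-loop and mostly lack a poly(A) tail, had sites in 2 of 68: 3 in H2AC25 and 1 in H2BC12. Of 53 clustered protocadherins only PCDHGA11 had any, with 2, and no site of several genes fell into this cluster. The 6 coding genes with most DRACH motifs and no site in any exon were TTN, the muscle protein titin, with 2862 motifs, the mucins MUC16 (1320) and MUC19 (1240), ANK2, the neuronal and cardiac ankyrin-B (1140), DMD, dystrophin (1121), and NFIA, a nuclear factor I transcription factor (1120).

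Of 9 genes known to be expressed in HEK293T, 5 had a site (55.6%, 26.7 to 81.1%), beside 34% of all coding genes. The interval holds the latter share, so this count cannot check the cell type. Of these genes, NEFM and VIM had 7 sites each and INA 4, while EYA1 and KRT8 were among those without one. None of 17 marker genes of blood, liver, muscle, pancreas, glia and endothelium had a site. Absence of sites does not show absence of the transcript.

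By chromosome, the share of coding genes with a site was highest on chromosome 22 (45.2%, 40.6 to 49.8%), 17 (43.6%) and 16 (43.4%), and lowest on X (23.5%, 20.8 to 26.5%) and chromosome 4 (24.4%, 21.5 to 27.6%). Sites per kb of exon in genes with a site had medians of 0.975 on chromosome 22 and 0.964 on chromosome 19, and of 0.438 on chromosome 4 and 0.441 on chromosome 18. Gene median scores hardly moved, from 0.699 on chromosome 18 to 0.732 on chromosome 16.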

How the data were processed

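m6A sites of HEK293T cells came from 4 miCLIP2 replicates. The score of each site in the deposited list is the m6Aboost prediction score, computed by the authors, who aligned reads to GRCh38 with STAR, retained those with a single mapping position, collapsed duplicates with UMI-tools (versions 2.7.3a and 1.0.0 in the submitters' processing notes), ran PureCLIP on each replicate, required a peak in at least 2 of them, and scored the peaks located at A. The list starts at a score of 0.5, holds no counts, and depth per replicate was not analysed here. Positions are 1-based on GRCh38.

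Sites were placed on GENCODE 44, whereas the authors used release 31, using SciPy 1.17.1, pandas 2.3.3 and NumPy 2.4.6 under Python 3.11.15, with Matplotlib 3.10.9 for figures. A site belonged to a gene when the union of the exons of all its transcripts covered it on its strand. Where this held for more than 1 gene, the site entered no value per gene. Regions, junctions and exon lengths came from 1 representative transcript per gene (MANE or Ensembl canonical, otherwise the longest coding sequence), and DRACH motifs from the genome sequence on the gene's strand, so that motifs formed only by splicing were not counted. The spread of gene median scores was taken over genes with at least 5 sites, and the medians of gene lists over all members with a site. On simulated sites, 600 of 600 were given the right gene and region.

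Genes named are the 15 with most sites, the 8 with most sites per kb (at least 5 sites), the 8 highest and 4 lowest in median score (at least 10 sites), the 6 with most motifs and no site, 6 lncRNA genes, in each list up to 4 members with most sites and, where at least 50% of members had a site, up to 2 long ones without, all m6A writers, readers and erasers, and 4 genes of the study. Some genes that this rule names are not reported here. Members and lists were chosen with earlier results of these data known. Alternatives were a score of at least 0.7, DRACH only, sites of several genes counted for each, representative exons only, sites within 5 nt merged, a least exon length of 500 nt, other exon length limits, and introns or the 3′ UTR of any transcript included.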

Additional observations from a re-analysis of the deposited data

How the results depend on the processing

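No paired analysis was possible because the list holds 1 value per site for all 4 replicates, and for the same reason no replicate could be left out. With sites of a score of at least 0.7, 18697 sites lay in exons of a single gene, the median was 2 sites per gene and 0.450 per kb of exon, 28.3% of coding and 1.18% of lncRNA genes had a site, 0.968% of coding genes had 10 or more, 53.9% of placed sites lay in the 3′ UTR, and long internal coding exons held 1.25 sites per kb. With DRACH only, the medians were 0.617 sites per kb and a gene score of 0.730, 3.21% of coding genes had 10 or more sites, and long exons held 2.20 per kb. With sites of several genes counted for each, the median was 0.715 per kb, 36.5% of coding and 1.93% of lncRNA genes had a site, and 4.62% of coding genes had 10 or more. On representative exons, the median was 1.11 per kb and 1.29% of lncRNA genes had a site. In the 3′ UTR of any transcript lay 56.8% of sites. Exons over 300 nt held 2.24 and over 1000 nt 2.11 sites per kb. The number of genes with a site (5933 to 7756) and of lists above all coding genes (26 or 27 of 37) stayed within 1.5 times. Of the 37 list shares, 7 fell below their interval at a score of at least 0.7 and none left it otherwise. Single genes moved more. Of 220 counts of sites in named genes, 115 were lower by more than 1.5 times at a score of at least 0.7. By the same limit, 8 were lower with DRACH only (TMEM203 9, DDIT4 6, DEXI 7, COX6B1 1, ARID1B 5, SRSF8 5, FZD2 6, ABT1 4). On representative exons 11 were, among them WTAP 8, NECTIN2 5, NDUFS7 1, SARS1 3, H2AC25 1, DDX17 9, DDX5 6 and CDKN2C 4. Smaller changes are not counted here. With sites of several genes counted, 4 were higher beyond this limit, each from 0. The lack of read depth and of expression values limits what absence of a site means.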
